A study of Mus musculus with 6 samples.

Results

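The genes described here are 42 genes of the lysosome, the acidic compartment in which cells break down material taken up from outside or from their own cytoplasm. They were chosen by function and found by gene symbol among the 24956 gene rows of the deposited table, and all 42 were present. They comprise 16 subunits of the vacuolar proton pump (V-ATPase), 22 hydrolases and activator proteins, and 4 proteins of the lysosomal membrane, with the cathepsin proteases left out. Bulk RNA came from sorted microglia, the macrophages that reside in brain tissue, of 3XTg-AD mice, an Alzheimer's disease model that carries human APP and MAPT transgenes. The 3 anti-NK1.1 libraries came from mice given an antibody that depletes natural killer (NK) cells, and the 3 isotype libraries from mice given a control antibody. All mice were 7 months old, and both antibodies were dosed at 25 µg every 4 days for 4 weeks. The labels do not say whether a library came from 1 mouse or from several, so p-values measure only the spread between these libraries.

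Lysosomes are acidified by the V-ATPase, in which a cytosolic V1 sector that splits ATP turns a membrane-embedded V0 sector that carries protons inward. Soluble hydrolases work at that acidic pH, several of them with the help of small activator proteins that lift lipids out of membranes, while heavily glycosylated membrane proteins line the inner face of the organelle. Microglia are rich in lysosomes and engulf debris, synapses and protein aggregates, and inherited loss of many of these enzymes in humans causes lysosomal storage diseases that damage the brain.

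The libraries held 26893620 to 31353937 gene counts in the anti-NK1.1 group and 31884697 to 36098252 in the isotype group. Levels are given as CPM (counts-per-million values after TMM scaling of library sizes). Defining microglial markers were high in every library. P2ry12, a nucleotide receptor, had 2683 to 4384 CPM in anti-NK1.1 against 4557 to 5058 CPM in isotype libraries, and Tmem119 had 2732 to 3473 CPM against 1649 to 2771 CPM. Of the 10 microglial markers listed, 3 had a log2 change above 0 and the rest below. They summed to 26066 to 34686 CPM in anti-NK1.1 against 30460 to 34692 CPM in isotype libraries. Markers of other cells were present too. The 12 neutrophil markers, all with a log2 change below 0, summed to 32640, 33064 and 141365 CPM in anti-NK1.1 libraries 1 to 3 and to 101894, 80123 and 73781 CPM in isotype libraries 1 to 3. All 9 neuron markers had a log2 change above 0, with sums of 193 to 579 CPM in anti-NK1.1 against 40.8 to 149 CPM in isotype libraries, and so did all 8 oligodendrocyte markers, with sums of 753 to 889 CPM against 297 to 401 CPM. The 8 NK cell markers summed to 38.3 to 73.2 CPM in anti-NK1.1 libraries, below the 84.1 to 130.3 CPM of isotype libraries. The 6 choroid plexus markers summed to 22572 to 39841 CPM against 6653 to 24460 CPM. In bulk RNA, fewer cells of a type and less RNA per cell cannot be told apart, and the part of these other cells in the lysosomal results was not tested.

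None of these lysosomal genes passed the threshold after NK cell depletion. All 42 passed the filter on low counts, and none had an adjusted p under 0.05 in edgeR's quasi-likelihood test over 14520 genes (background 0%). None reached an unadjusted p under 0.05 either, against 6.54% of all tested genes, with the smallest unadjusted p of the 42 at 0.0601. DESeq2 called 0 of the 42 after adjustment and 83 of all genes (0.574%), and gave an unadjusted p under 0.05 to 2 of the 42, Gm2a and Fuca1, against 9.26% of all genes. The log2 change, anti-NK1.1 over isotype, was above 0 for 25 genes and below 0 for 17, with a median of 0.13. Over all tested genes 50.9% were above 0 and 49.1% below, and the median was 0.01. Groups did not overlap for 5 of the 42 (11.9%), against 15.3% of all tested genes. In Atp6ap1, Glb1, Gusb and Lgmn the lowest anti-NK1.1 library lay above the highest isotype library, as in 7.73% of all genes, and in Atp6v1a the order was the opposite, as in 7.59%.

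**Figure D1:**
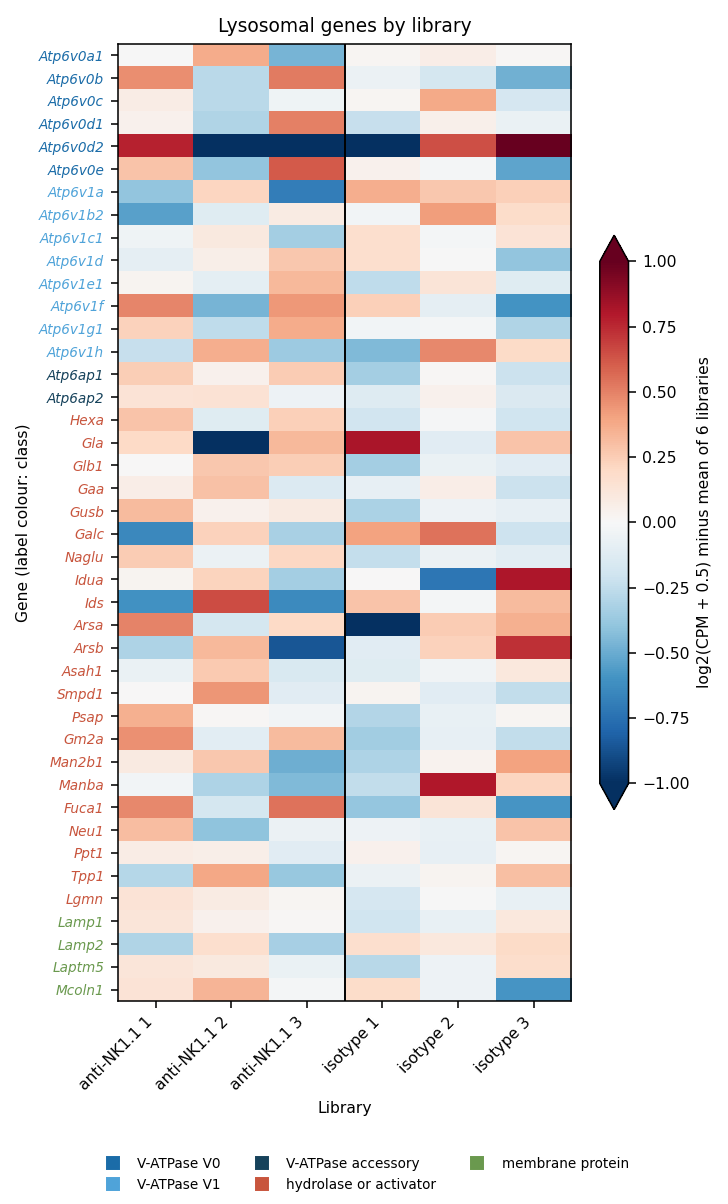
Level of the 42 lysosomal genes (rows, label colour by class) in the 6 libraries (columns), as log2(CPM + 0.5) minus the gene's mean over the libraries, with red above and blue below that mean. Anti-NK1.1 1 and 3 often share a colour that anti-NK1.1 2 lacks, and Atp6v0d2 in most libraries and single libraries of Gla and Arsa lie past the ends of the colour scale.

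As a whole the set took 2.14% ± 0.289 of gene counts in anti-NK1.1 and 2.04% ± 0.212 in isotype libraries (SD, n = 3 each), a difference smaller than the spread within either group. The hydrolases took 1.16% ± 0.186 against 1.097% ± 0.127, the membrane proteins 0.585% ± 0.102 against 0.587% ± 0.0934, and the V-ATPase subunits 0.393% ± 0.0215 against 0.353% ± 0.0219. The V-ATPase difference was larger than either SD, but the groups overlapped (0.3758% to 0.4171% against 0.3333% to 0.3764%). These shares are not TMM-scaled. In CPM, the 42 genes summed to 20945 to 23019 in anti-NK1.1 against 18259 to 20988.5 in isotype libraries. Laptm5, Lgmn, Psap, Lamp1 and Hexa together made up 56.4% ± 1.14 of the set's counts in anti-NK1.1 libraries and 55.2% ± 1.43 in isotype libraries.

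Many lysosomal genes carry an element called CLEAR near their start site, which is bound by the transcription factor TFEB and its relatives. Promoters of 250 bases before to 50 bases after the start site, from RefSeq (GRCm38.p6), were found for 36 of the 42 genes, in 40 promoters. The letters TCACGTGA with a G before and a C after them, the full palindrome, were in none of them and in 0.326% of all 32851 promoters in that table. TCACGTGA alone was in 5 of the 40 (12.5%), against 0.974% of all promoters, and the core CACGTG, which the longer forms contain, was in 12 of the 40 (30%), against 7.15%. Each of these motifs reads the same on both strands. The core was in promoters of 4 V-ATPase genes, 6 hydrolase genes and 2 membrane protein genes. A match is a description of the letters and does not show that a factor binds there.

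The following stretches are shown because their genes hold the core at least 2 times, or the 8-letter form, before the RefSeq start site. Gene bounds given elsewhere in the text are those of GENCODE, which places some starts differently. By those bounds the Atp6v1a stretch lies inside the gene, which starts at 44139705, and the 8-letter match of Mcoln1 lies after its start at 3500457. Capitals mark the matches, and each reads 5′ to 3′ on the gene's strand. The Lamp1 stretch (chr8:13159080-13159160, plus strand) holds 4 cores and the Mcoln1 stretch (chr8:3500428-3500500, plus strand) holds 2. The Atp6v0b stretch (chr4:117887330-117887385, minus strand) holds 2, the Gla stretch (chrX:134601173-134601253, minus strand) holds 2 and the Atp6v1a stretch (chr16:44139364-44139411, minus strand) holds 1.
Lamp1: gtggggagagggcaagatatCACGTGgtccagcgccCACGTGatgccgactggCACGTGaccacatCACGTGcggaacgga
Mcoln1: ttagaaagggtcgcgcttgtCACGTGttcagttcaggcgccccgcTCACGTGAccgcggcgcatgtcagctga
Atp6v0b: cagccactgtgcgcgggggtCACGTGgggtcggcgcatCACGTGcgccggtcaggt
Gla: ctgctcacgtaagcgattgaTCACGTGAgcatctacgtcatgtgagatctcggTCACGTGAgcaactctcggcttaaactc
Atp6v1a: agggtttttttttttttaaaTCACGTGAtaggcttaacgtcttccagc
Of the 12 genes with the core, 10 had a log2 change above 0, against 13 of the 24 matched genes without it. The genes with it had a median of 0.22, with values of -0.53 to 0.50, and those without it a median of 0.05, with values of -0.58 to 0.57. With a correction of each library for length and GC content 7 of the 12 and 15 of the 24 were above 0, with a median of 0.04 in each, and with anti-NK1.1 2 as the only anti-NK1.1 library 6 of the 12 and 17 of the 24 were. Among the 5 shown, Atp6v0b, Mcoln1 and Lamp1 had log2 changes above 0 and Gla and Atp6v1a below 0.

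**Figure D2:**
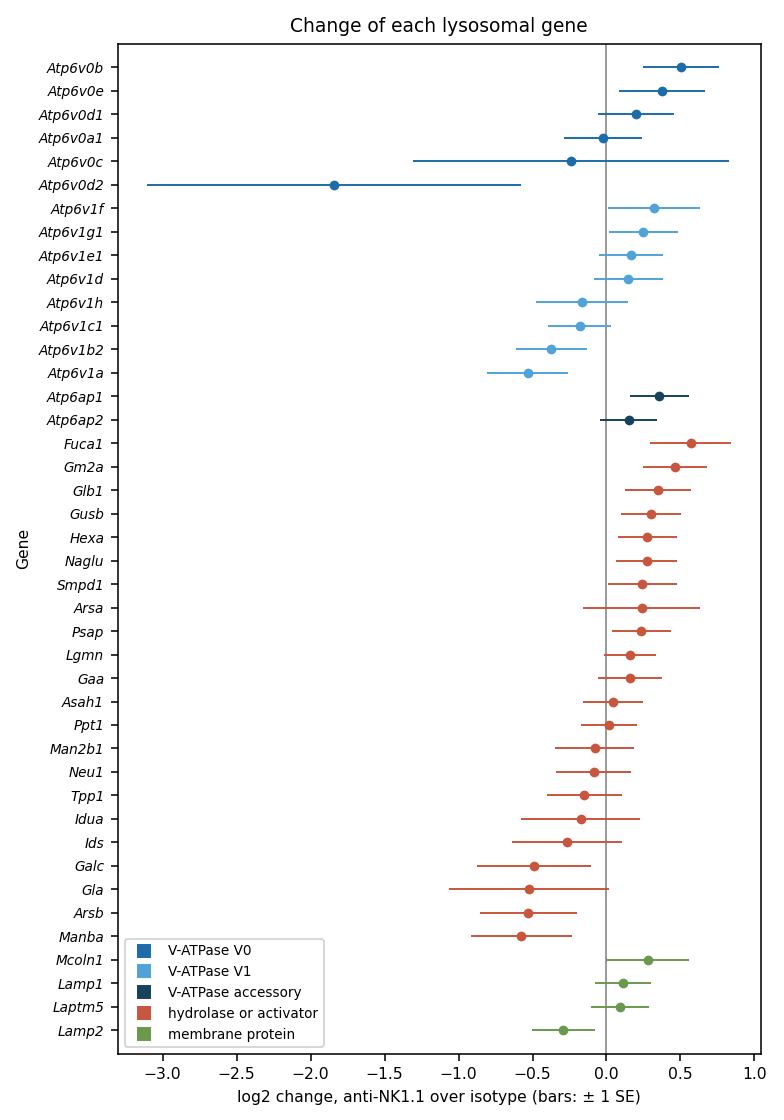
Log2 change, anti-NK1.1 over isotype, of each of the 42 genes (points; bars are ± 1 standard error), grouped and coloured by class. Values run from -1.84 for Atp6v0d2 to 0.57 for Fuca1, and none passed the threshold over all genes.

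Of the 6 subunits of the V0 sector, 3 had a log2 change above 0 and 3 below. Atp6v0b, a proteolipid of the proton-carrying ring (chromosome 4, 117884326 to 117887333, GRCm38), had 951, 572 and 989 CPM in anti-NK1.1 libraries 1 to 3, against 665, 612 and 496 CPM in isotype libraries 1 to 3. Anti-NK1.1 1 and 3 lay above every isotype library, while anti-NK1.1 2 lay within the isotype range. The log2 change was 0.50 ± 0.25 (SE, edgeR adjusted p = 0.743). Atp6v0e, a small membrane subunit, had the same order, with 499, 311 and 627 CPM in anti-NK1.1 against 421, 403 and 283 CPM in isotype libraries and a log2 change of 0.38 ± 0.29. Atp6v0d1, the subunit that couples the ring to the central stalk, had 0.20 ± 0.26. Atp6v0a1, an isoform of the large subunit that forms the proton path, averaged 74.3 ± 21.2 CPM in anti-NK1.1 against 75.5 ± 1.66 CPM in isotype libraries (SD, n = 3 each).

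Atp6v0d2, the isoform of the stalk coupling subunit that osteoclasts use and that macrophages can induce, was the most variable gene of the set. It had 108, 26 and 16 counts in anti-NK1.1 libraries and 12, 119 and 596 counts in isotype libraries, or 4.06, 0.759 and 0.638 CPM against 0.335, 3.69 and 15.6 CPM. The isotype group held both the lowest and the highest library, which differed 46.5-fold, and isotype 3 alone carried most of its counts. Its log2 change of -1.84 ± 1.26 (edgeR adjusted p = 0.758) was -0.15 when isotype 3 was left out and -3.22 when anti-NK1.1 1 was. Atp6v0c, the other ring proteolipid, had only 32, 29 and 27 counts in anti-NK1.1 and 41, 52 and 36 in isotype libraries, with a log2 change of -0.24 ± 1.07. Of the 75-base windows of its transcript, 28.5% also occur in annotated pseudogenes (Atp6v0c-ps1 and Atp6v0c-ps2), so reads from them may not have been counted and its level is uncertain. Its other windows were not found in transcripts of other genes, and the cause of its low counts was not tested.

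In the V1 sector 4 subunits had a log2 change above 0 and 4 below. Atp6v1a, the catalytic subunit that binds and splits ATP (chromosome 16, 44085402 to 44139705), had 65.2, 99.6 and 53.0 CPM in anti-NK1.1 libraries, against 111, 104 and 101 CPM in isotype libraries. Every anti-NK1.1 library was below every isotype library, but anti-NK1.1 2 was only just so, and the log2 change of -0.53 ± 0.27 did not pass (edgeR adjusted p = 0.743). Atp6v1b2, its partner in the head of the pump, had 123, 165 and 190.5 CPM in anti-NK1.1 against 176, 239.9 and 204 CPM in isotype libraries, and isotype 1 lay inside the anti-NK1.1 range. Its log2 change was -0.37 ± 0.24 (edgeR adjusted p = 0.751). Atp6v1c1, which holds the peripheral stalks, and Atp6v1h, a regulatory subunit, had -0.18 ± 0.21 and -0.17 ± 0.31. The stalk subunits Atp6v1f, Atp6v1g1, Atp6v1e1 and Atp6v1d had 0.32 ± 0.31, 0.25 ± 0.23, 0.17 ± 0.22 and 0.15 ± 0.23.

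Both accessory subunits had log2 changes above 0. Atp6ap1, a glycoprotein of the pump that helps to assemble V0 (chromosome X, 74297097 to 74304721), had 787, 682 and 789 CPM in anti-NK1.1 against 524, 669 and 569.8 CPM in isotype libraries. The groups did not overlap, although anti-NK1.1 2 and isotype 2 lay close together, and the log2 change was 0.36 ± 0.20 (edgeR adjusted p = 0.743). Atp6ap2, the prorenin receptor, which also takes part in V-ATPase assembly, had 428, 429 and 375 CPM in anti-NK1.1 against 356, 399 and 352 CPM in isotype libraries. Anti-NK1.1 3 lay inside the isotype range, and the log2 change was 0.15 ± 0.19.

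**Figure D3:**
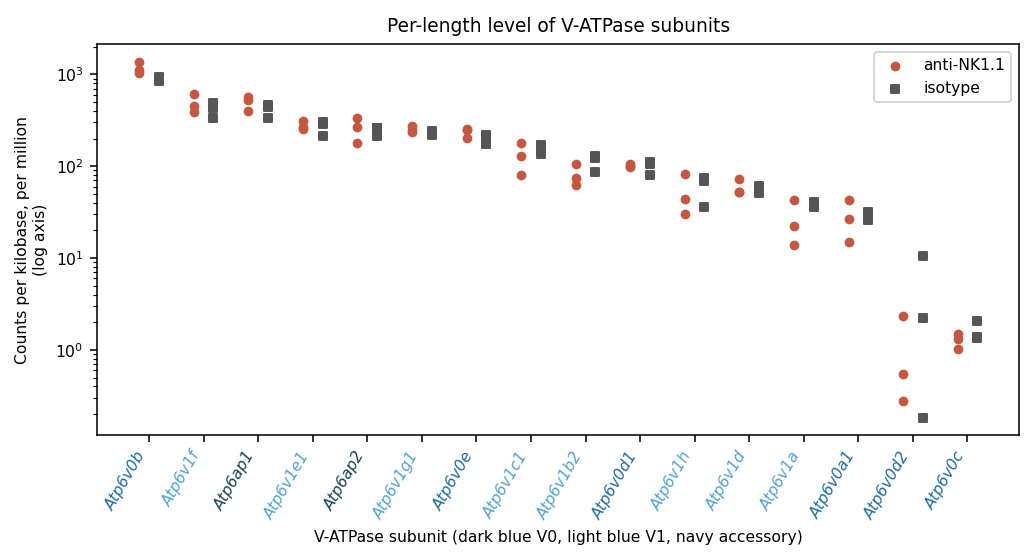
Per-length level (counts per kilobase of transcript, scaled to the same total in each library, log axis) of the 16 V-ATPase genes in anti-NK1.1 (circles) and isotype (squares) libraries, ordered by the isotype mean. Atp6v0b is highest and Atp6v0c, whose level is uncertain, lowest, and the anti-NK1.1 libraries spread widely for Atp6v1a and Atp6v0a1.

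Levels of different subunits were compared per length, as counts per kilobase of the longest basic GENCODE transcript, scaled to the same total in each library. On this scale Atp6v0b stood at 1174 ± 180 in anti-NK1.1 and 902 ± 43.3 in isotype libraries (SD, n = 3 each), followed by Atp6v1f (483 ± 111 and 419 ± 76.4) and Atp6ap1 (496 ± 84.2 and 415 ± 71.1). Atp6v1a had 26.3 ± 14.8 and 38.2 ± 2.55, below its partner Atp6v1b2 at 81.6 ± 22.2 and 113 ± 23.3. The ratio of 2 subunits within a library is free of the scaling between libraries. Atp6v0b stood at 61.7, 24.3 and 79.0 times the per-length level of Atp6v1a in anti-NK1.1 libraries 1 to 3, and at 25.4, 25.0 and 20.7 times in isotype libraries. Anti-NK1.1 2 lay within the isotype range and anti-NK1.1 1 and 3 above it. These genes differ in transcript length, at 1000 nt for Atp6v0b and 4234 nt for Atp6v1a, and libraries differed by length. The ratio of Atp6v1a to Atp6v1b2 was 0.353, 0.402 and 0.186 in anti-NK1.1 and 0.420, 0.288 and 0.331 in isotype libraries, with overlapping groups. Per length, Tcirg1, the large-subunit isoform of osteoclasts and immune cells, stood at 2.26, 1.42 and 2.68 times Atp6v0a1 in anti-NK1.1 libraries and at 2.52, 2.53 and 2.54 times in isotype libraries.

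Among the enzymes and activators, 13 of 22 had a log2 change above 0 and 9 below, with a median of 0.10 that was 0.030 without isotype 1, 0.049 without anti-NK1.1 2 and 0.16 without anti-NK1.1 3. Of those that act on sphingolipids, 7 of 9 were above 0, with a median of 0.24 that was 0.10 without anti-NK1.1 1 and 0.097 with the correction for length and GC content. The members with the smallest p were Gm2a and Fuca1. Gm2a, the activator that presents GM2 ganglioside to hexosaminidase A (chromosome 11, 55098115 to 55113029), had 795, 538 and 723 CPM in anti-NK1.1 against 456, 546 and 489 CPM in isotype libraries. Anti-NK1.1 2 lay just under isotype 2, so the groups overlapped by that pair, and the log2 change was 0.46 ± 0.22 (edgeR unadjusted p = 0.0601, adjusted p = 0.743). Hexa, the enzyme's alpha subunit, which is deficient in Tay-Sachs disease (chromosome 9, 59539540 to 59565109), had 1424, 1078 and 1379 CPM against 1028, 1164 and 1018 CPM. Again anti-NK1.1 2 alone lay inside the isotype range, and the log2 change was 0.27 ± 0.20. The per-length ratio of Gm2a to Hexa was 0.270, 0.241 and 0.253 in anti-NK1.1 libraries and 0.214, 0.227 and 0.233 in isotype libraries. It did not overlap between the groups, but the share of all gene pairs that do so was not computed. These transcripts also differ in length, at 4127 nt for Gm2a and 1996 nt for Hexa, and libraries differed by length. With the correction for length and GC content the log2 changes were 0.68 for Gm2a and 0.016 for Hexa. The part of length in this ratio was not tested.

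Psap, the precursor of the saposins that help to degrade several sphingolipids (chromosome 10, 60277627 to 60302597), was the most abundant sphingolipid gene of the set. It had 3282, 2584 and 2517 CPM in anti-NK1.1 against 2090.3, 2431 and 2598 CPM in isotype libraries. Only anti-NK1.1 1 lay above the isotype range, and the log2 change was 0.24 ± 0.20. Glb1, the beta-galactosidase that cleaves GM1 ganglioside (chromosome 9, 114401076 to 114474898), had 79.5, 95.5 and 94.2 CPM in anti-NK1.1 against 62.4, 75.9 and 73.2 CPM in isotype libraries. The groups did not overlap, with a log2 change of 0.35 ± 0.22 (edgeR adjusted p = 0.750). Asah1, acid ceramidase, had 571, 717 and 538 CPM against 548, 582 and 642 CPM, so the anti-NK1.1 group spanned the whole isotype range, and the log2 change was 0.04 ± 0.20. Smpd1, acid sphingomyelinase, and Arsa, which removes sulfate from sulfatide, had 0.24 ± 0.23 and 0.24 ± 0.40. Galc, which degrades the myelin lipid galactosylceramide, and Gla, alpha-galactosidase A, lay on the other side with -0.49 ± 0.38 and -0.52 ± 0.54. Gla rested on 158 counts in anti-NK1.1 2, against 430 and 445 in the other anti-NK1.1 libraries, and its log2 change was -0.12 without that library and -0.22 without isotype 1.

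Enzymes of glycosaminoglycans lay on both sides, with 2 of 5 above 0. Gusb, beta-glucuronidase (chromosome 5, 129989011 to 130003049), had 326, 269 and 278 CPM in anti-NK1.1 against 209.7, 253 and 247 CPM in isotype libraries. The groups did not overlap, and the log2 change was 0.30 ± 0.20 (edgeR adjusted p = 0.756). Naglu, which removes terminal sugars from heparan sulfate, had 0.27 ± 0.21. Arsb, which removes sulfate from dermatan sulfate (chromosome 13, 93771630 to 93943016), had 479.9, 743 and 328 CPM in anti-NK1.1 against 549, 697 and 989 CPM in isotype libraries. Anti-NK1.1 1 and 3 lay below every isotype library and anti-NK1.1 2 inside their range, for a log2 change of -0.53 ± 0.33 (edgeR adjusted p = 0.748). Because 55.5% of the 75-base windows of the Arsb transcript also occur in transcripts of other annotated genes, its counts are uncertain. Smaller shares of such windows were found for Arsa (15.9%), Atp6v1g1 (12.5%), Hexa (9.42%), Atp6v1f (7.38%), Galc (6.71%), Lamp1 (4.87%), Glb1 (3.92%) and Idua (1.99%). Ids and Idua, which act on dermatan and heparan sulfate, had -0.27 ± 0.37 and -0.18 ± 0.40. Ids stood at 80.9 CPM in anti-NK1.1 2, above every isotype library (50.7 to 64.1 CPM), and at 33.6 and 32.9 CPM in anti-NK1.1 1 and 3, below all of them.

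Of the 5 enzymes that release sugars from glycogen and glycoproteins, 2 were above 0. Fuca1, the lysosomal alpha-fucosidase (chromosome 4, 135920735 to 135940311), had 438, 278 and 458 CPM in anti-NK1.1 against 240.5, 343 and 209 CPM in isotype libraries. Its log2 change of 0.57 ± 0.28 was the highest of the set (edgeR adjusted p = 0.743), yet anti-NK1.1 2 lay below isotype 2. Manba, beta-mannosidase (chromosome 3, 135485611 to 135571404), had 30.7, 25.1 and 22.9 CPM against 26.3, 54.7 and 36.4 CPM. Anti-NK1.1 1 lay above isotype 1, and the log2 change was -0.58 ± 0.34 (edgeR adjusted p = 0.745). Gaa, which degrades glycogen and is deficient in Pompe disease, had 0.16 ± 0.22, the alpha-mannosidase Man2b1 -0.08 ± 0.27 and the sialidase Neu1 -0.09 ± 0.26.

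Lgmn, the asparagine-specific protease legumain that also processes other lysosomal enzymes (chromosome 12, 102394084 to 102439813), was among the steadiest genes. It had 3049.7, 2944 and 2813 CPM in anti-NK1.1 against 2475, 2771 and 2638 CPM in isotype libraries, with no overlap, and the log2 change was 0.16 ± 0.18 (edgeR adjusted p = 0.839). Ppt1, which removes fatty acids from proteins, had the smallest spread of the set, from 433 to 494 CPM over all 6 libraries, and a log2 change of 0.02 ± 0.19. Tpp1, a peptidase that like Ppt1 is lost in forms of neuronal ceroid lipofuscinosis, had -0.15 ± 0.25.

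**Figure D4:**
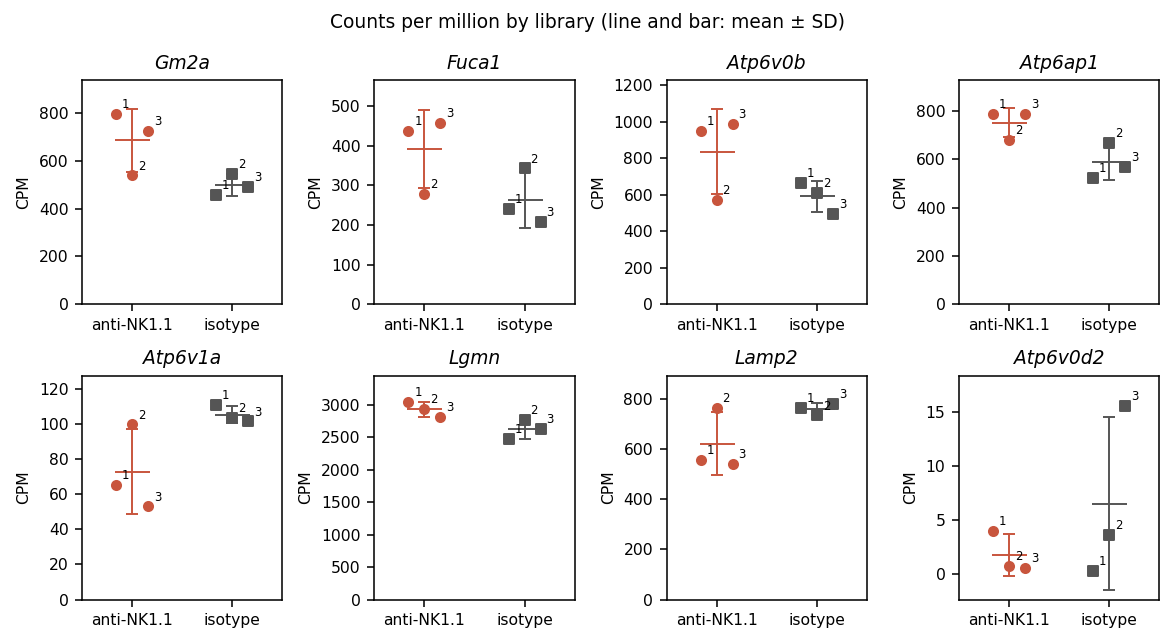
CPM of 8 lysosomal genes in each library (points numbered by library; line and bar are the mean ± SD, n = 3), with anti-NK1.1 left of isotype. Atp6ap1, Lgmn and Atp6v1a do not overlap between groups, and anti-NK1.1 2 stands apart from anti-NK1.1 1 and 3 in Fuca1, Atp6v0b, Atp6v1a and Lamp2.

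The 4 membrane proteins had log2 changes of -0.29 to 0.28. Laptm5, a lysosomal membrane protein of immune cells (chromosome 4, 130913125 to 130936141), had 3928, 3860.4 and 3442 CPM in anti-NK1.1 against 2976, 3482 and 4083 CPM in isotype libraries. The isotype group spanned all anti-NK1.1 values, and the log2 change was 0.09 ± 0.20. Lamp1, a glycoprotein that coats the inner face of the lysosome (chromosome 8, 13159161 to 13175338), had 1581, 1503 and 1465 CPM against 1267, 1380.2 and 1564 CPM and a log2 change of 0.11 ± 0.19, with overlap through isotype 3. Lamp2, its relative, which is also needed for fusion with autophagosomes (chromosome X, 38401357 to 38456454), had 555, 765 and 542 CPM in anti-NK1.1 against 765, 734 and 779 CPM in isotype libraries. Anti-NK1.1 1 and 3 lay below the isotype libraries and anti-NK1.1 2 among them, for a log2 change of -0.29 ± 0.21 (edgeR adjusted p = 0.769). Lamp1 stood at 4.61, 3.17 and 4.37 times Lamp2 per length in anti-NK1.1 libraries and at 2.68, 3.04 and 3.25 times in isotype libraries, with overlap through anti-NK1.1 2. Here too the transcripts differ in length, at 2229 nt for Lamp1 and 3604 nt for Lamp2. With the correction for length and GC content the log2 changes were 0.05 for Lamp1 and 0.20 for Lamp2. Mcoln1, a calcium and iron channel of the lysosome, had 0.28 ± 0.28.

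The log2 range within a group had a median over the 42 genes of 0.56 in anti-NK1.1 and 0.35 in isotype libraries, against 1.00 and 0.83 over all tested genes. It was larger within anti-NK1.1 than within isotype libraries for 29 of the 42 (69.0%), against 58.6% of all tested genes. In 33 of the 42 (78.6%) anti-NK1.1 2 lay outside the other anti-NK1.1 libraries, above both in 17 and below both in 16, and it did so in 72.2% of all tested genes. Libraries also differed by transcript length. Over the 42 genes the Spearman rho between length and a library's deviation from the gene's mean was -0.41, 0.37 and -0.51 in anti-NK1.1 libraries 1 to 3 and 0.13, 0.22 and 0.45 in isotype libraries 1 to 3. Over 14391 tested genes with a length it was -0.17, 0.27 and -0.34 in anti-NK1.1 and -0.01, 0.04 and 0.35 in isotype libraries. Genes of a library share its depth and preparation, so these are descriptions of the libraries.

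Of the 21 members with transcripts shorter than 2580 nt, 16 had a log2 change above 0, with a median of 0.20, and of the 21 longer ones 9 did, with a median of -0.08. With anti-NK1.1 2 as the only anti-NK1.1 library 13 of the shorter and 13 of the longer ones were above 0, with medians of 0.07 and 0.12. A correction of each library for length and GC content, which takes such trends out by construction, gave medians of 0.03 and -0.03. With it the median of the V-ATPase subunits was 0.03, against 0.15 without it, and that of the whole set was 0.03. With the correction Atp6v0b had a log2 change of 0.06, Atp6v1a -0.21, Fuca1 0.48 and Lamp2 0.20. These were smaller in size than without it or turned in sign, but other genes moved further from 0. Gm2a had 0.68 with it against 0.46 without, Atp6v0e 0.67 against 0.38, Atp6v1d 0.59 against 0.15 and Atp6ap2 0.51 against 0.15. With anti-NK1.1 2 as the only anti-NK1.1 library, assumed to vary as the isotype libraries do, the log2 changes were -0.04 for Atp6v0b, -0.07 for Atp6v1a, 0.02 for Lamp2 and 0.08 for Fuca1. For the genes whose groups did not overlap upward they were 0.22 for Atp6ap1, 0.44 for Glb1, 0.19 for Gusb and 0.17 for Lgmn. The sign of these values follows from that choice of genes, since anti-NK1.1 2 also lay above every isotype library in each. Without anti-NK1.1 2 the changes were 0.71 for Atp6v0b, -0.83 for Atp6v1a, -0.47 for Lamp2 and 0.76 for Fuca1. In that fit 129 of 14990 genes (0.861%) were called, and 0 of the 42.

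**Figure D5:**
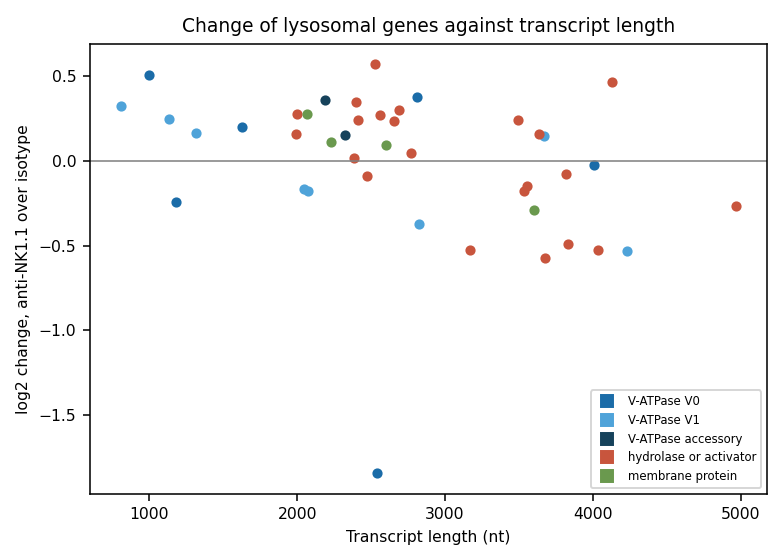
Log2 change, anti-NK1.1 over isotype, of the 42 genes (points, coloured by class) against transcript length in nt, from all 6 libraries. The longer genes lie lower (Spearman rho -0.44 over 42 genes, and -0.22 over 14391 tested genes). With anti-NK1.1 2 as the only anti-NK1.1 library rho was 0.13 over the 42 genes.

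A list of 122 other lysosomal genes, drawn up by function, held 120 that were in the table and 111 that passed the filter on low counts. None had an adjusted p under 0.05 with edgeR or DESeq2, and 8 of the 111 (7.21%) had an unadjusted p under 0.05, against 6.54% of all tested genes, 3 of them higher and 5 lower. Of the 111, 59 had a log2 change above 0, with a median of 0.04. The V-ATPase isoforms Atp6v0e2 and Atp6v1g2, which are enriched in neurons, had log2 changes of 2.14 ± 0.78 and 1.38 ± 0.59. Atp6v0e2 had 259, 222 and 321 counts in anti-NK1.1 and 32, 147 and 44 in isotype libraries, with no overlap in CPM. In CPM it had 9.74, 6.48 and 12.8 in anti-NK1.1 libraries 1 to 3 and 0.893, 4.56 and 1.15 in isotype libraries 1 to 3. Atp6v1g2 had 18.1, 6.72 and 12.9 CPM against 3.32, 7.60 and 3.55 CPM, with overlap. In the same order, the neuron markers summed to 579, 193 and 322 CPM against 81.2, 40.8 and 149 CPM. Whether RNA of neurons contributed to these 2 genes was not tested. Hyal2, a hyaluronidase, had 0.84 ± 0.37. Siae, a sialic acid esterase, had 16.6, 28.1 and 16.3 CPM in anti-NK1.1 against 60.1, 39.7 and 32.7 CPM in isotype libraries. The groups did not overlap, and its log2 change was -1.12 ± 0.37 (edgeR adjusted p = 0.727). Gnptab, which makes the tag that sorts enzymes to lysosomes, had -1.39 ± 0.54, Fnip1, a regulator of lysosomal nutrient signalling, -1.20 ± 0.53, Tmem106b, a lysosomal membrane protein, -0.82 ± 0.30 and the sialomucin Cd164 -0.56 ± 0.22.

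Regulators and landmark genes of the lysosome did not pass either. Tfeb, the factor that binds CLEAR elements, had 60.8, 57.2 and 88.4 CPM in anti-NK1.1 against 46.2, 64.9 and 62.9 CPM in isotype libraries, a log2 change of 0.25 ± 0.27, and its relatives Tfe3 and Mitf had -0.19 ± 0.24 and -0.58 ± 0.61. Tcirg1 had 126, 103 and 109 CPM in anti-NK1.1 against 143, 149 and 143 CPM in isotype libraries. It was lower in every anti-NK1.1 library, with a log2 change of -0.36 ± 0.21 (edgeR adjusted p = 0.743). Cd68, a macrophage lysosomal glycoprotein, had 0.32 ± 0.20, and Npc1, which exports cholesterol from lysosomes, had -0.11 ± 0.24.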

How the data were processed

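RNA was measured in 6 libraries, 3 per group. Per the labels' protocols, total RNA of sorted cells (Trizol-LS) went through a SMART-seq v4 cDNA kit and Nextera XT library preparation to single-end reads of 75 bases. Neither kit marks strand or molecules, so antisense reads cannot be told apart. The aligner STAR 2.5.3a, together with DESeq2 1.1, Cufflinks 2.0 and build mm10, is named in the submitters' processing notes. What program counted reads, and against which annotation, is not given in the sources used here. Although its name calls the deposited table normalized, its values are whole-number counts with unequal totals and rows for reads in no feature (53.3% to 57.4%), so the count test was used. Left out were 26 rows with a date in place of a symbol.

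Counts were filtered with filterByExpr, scaled with TMM factors and tested two-sided with edgeR 4.0.16 (quasi-likelihood, group only, R 4.3.3), with Benjamini-Hochberg adjustment over 14520 genes and a threshold of 0.05. CPM use the TMM-scaled library sizes, in which 3 counts correspond to 0.0784 to 0.120 CPM. The SE of a log2 change is its size divided by the square root of F. Alternatives used DESeq2 1.42.0 and limma 3.58.1. Transcript length, GC content and coordinates came from GENCODE M21 (GRCm38), matched for 98.0% of gene rows. Per-library values, log2 change and SE were given for the 10 members of smallest p and for 11 fixed members, 1 of which was also among those 10. An adjusted p was printed for those 10 and for only some of the other fixed members. Of the other lysosomal genes, the 8 of smallest p and 7 fixed ones were to be named, and 1 of these is not reported here. Other values were named after they were seen. The members and lists were chosen with earlier results of these data known. Same-numbered libraries of the groups did not deviate together (correlations of 0.05, 0.03 and -0.0038), so no pairing was used.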

Additional observations from a re-analysis of the deposited data

How the results depend on the processing

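The number of genes called over all genes was 0 with edgeR, 83 with DESeq2, 4 with limma and sample weights, 2 with limma and quantile normalization, and 0 to 129 when 1 library was left out (129 without anti-NK1.1 2). Without anti-NK1.1 1 and 3 the lone anti-NK1.1 library is assumed to vary like the isotype libraries. In none of the 17 alternatives was any of the 42 lysosomal genes called. Their median log2 change was 0.13 and became 0.21 with upper quartile factors, 0.19 for the 40 of them with a mean of at least 5 CPM, 0.035 with quantile normalization, 0.075 without anti-NK1.1 1 and 3, 0.033 with the length and GC correction, and 0.055 to 0.14 when 1 library was left out. The hydrolase median of 0.10 was 0.022 with quantile normalization, 0.18 with upper quartile factors and 0.030 to 0.16 when 1 library was left out. The V-ATPase median was -0.055 without anti-NK1.1 1 and 3 and 0.029 with the length and GC correction, and the membrane protein median was -0.055 with quantile normalization. With the replicate number as a block the members' median was 0.13, 25 were above 0 and 0 genes were called, and with the block and the length and GC correction together the median was 0.040. The block changed no other call.

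The sign was the same in every alternative for 19 members and turned in at least 1 for 23, none of them called. With upper quartile factors Atp6v0a1 had 0.054 and Neu1 0.00045, and with the CPM minimum Atp6v0a1 had 0.015. With quantile normalization Atp6v0a1 had 0.016, Idua 0.053, Asah1 -0.013, Ppt1 -0.064, Lgmn -0.0091 and Laptm5 -0.11. With limma and sample weights Idua had 0.15 and Asah1 -0.0062. Without anti-NK1.1 1 and 3, Atp6v0a1 had 0.35, Atp6v0b -0.039, Atp6v0d1 -0.22, Atp6v0e -0.24, Atp6v1c1 0.0092, Atp6v1e1 -0.021, Atp6v1f -0.35, Atp6v1g1 -0.14, Atp6v1h 0.25, Idua 0.066, Ids 0.46, Arsa -0.13, Man2b1 0.20, Tpp1 0.29 and Lamp2 0.017. With the length and GC correction Atp6v0d1 had -0.050, Atp6v1h 0.031, Gaa -0.14, Naglu -0.13, Ids 0.11, Tpp1 0.053, Lamp2 0.20 and Laptm5 -0.12. With the block added Atp6v0d1 had -0.047, Atp6v1h 0.073, Gaa -0.14, Naglu -0.13, Ids 0.079, Smpd1 -0.0068, Tpp1 0.046, Lamp2 0.19 and Laptm5 -0.12. When 1 library was left out, values ran from -0.25 to 0.16 for Atp6v0a1, -0.043 to 0.37 for Atp6v0d1, -0.43 to 0.052 for Atp6v1h, -0.089 to 0.48 for Arsa, -0.093 to 0.12 for Asah1, -0.48 to 0.31 for Idua, -0.00089 to 0.21 for Laptm5, -0.24 to 0.12 for Man2b1, -0.29 to 0.070 for Neu1 and -0.022 to 0.071 for Ppt1. The cause of these shifts was not tested. Counts were lowest for Atp6v0c, at 27 to 52 a library, and for Atp6v0d2, at 12 to 596, and counting error is largest there.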
